A study of Mus musculus with 5 samples.

Results

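Transcription factor genes that pattern the areas of the cortex, Emx1, Emx2, Nr2f1, Nr2f2, Sp8 and Bhlhe22, were followed by symbol through RNA sequencing of the medial and lateral cortex of E14.5 mouse embryos. All 6 were found among 34590 gene symbols, and all 6 were among the 16229 genes with enough reads to be tested. The groups were 3 libraries of medial cortex and 2 of lateral cortex, from dissected brain of wild-type embryos on a mixed strain background, without treatment. No label ties a library to an animal or says whether embryos were pooled, so p-values measure the spread between these libraries, which may be technical. Which rostral or caudal levels each piece of cortex covered is not stated.

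The cortical sheet is divided into areas by transcription factors that are graded across its progenitors. Signals from the edges of the sheet set these gradients: Wnt and BMP proteins from the medial edge promote Emx2, and FGF proteins from the rostral edge promote Sp8 and restrain Emx2 and Nr2f1. Emx2 is known to be high caudally and medially, Nr2f1 high caudally and laterally, and Sp8 high rostrally and medially. Bhlhe22 acts later, in neurons that have left the cell cycle.

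Levels are read counts scaled to the gene reads of each library with TMM, in the usual unit CPM. Each log2 fold change compares medial with lateral cortex, positive where medial was higher, and comes with its standard error (SE) from edgeR's quasi-likelihood test. P-values were adjusted by Benjamini-Hochberg over all 16229 genes, and a gene passed at an adjusted p below 0.05. Gene reads came to between 27406370 and 36460274 in the medial and between 56147129 and 66981952 in the lateral libraries, so depth differed with region. The least-read of the 6 genes, Nr2f2, had between 180 and 470 reads in each library.

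Emx2 and Sp8 were higher in medial cortex, by 2.49 and 3.15 times, and 0 of the 6 genes passed as lower in edgeR, as in DESeq2; 3 of the 6 had an unadjusted p below 0.05, each higher in medial cortex, against 32.2% of all genes tested in either direction. Nr2f2 was 3.17 times as high in medial cortex but narrowly missed the threshold. Nr2f1 had its lowest levels in medial libraries 2 and 3, while medial library 1 stood at the lateral level. Emx1 and Bhlhe22 had overlapping groups. Over all genes tested 4.62% passed as higher and 5.1% as lower in medial cortex. Under TMM scaling 3 of the 6 genes had every medial library above both lateral ones, against 26.5% of all genes tested, and 1 had every medial library below them, against 26.8%; in either direction it was 53.3%. Shares of this size say little about the 6 genes in particular.

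**Figure D1:**
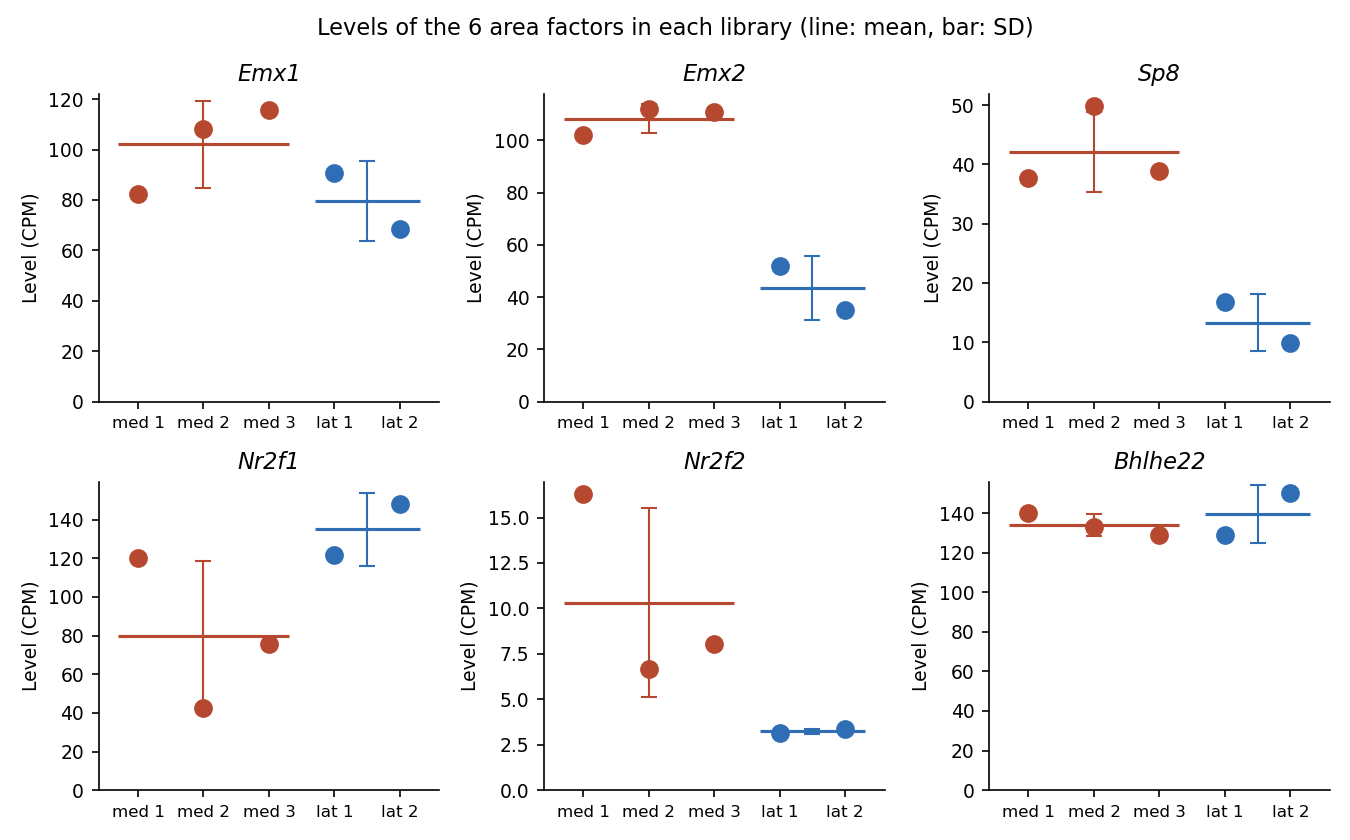
Level of each of the 6 genes (CPM, linear axis from 0) in medial libraries 1 to 3 and lateral libraries 1 and 2; points are libraries, lines are group means and bars are SDs. Every medial point of Emx2, Sp8 and Nr2f2 lies above both lateral points, and medial library 1 stands apart from the other two medial libraries in Nr2f1 and Nr2f2.

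Medial library 1 differed from the other libraries in genes of neighbouring tissue, and this touches several values below. The collagen genes Col1a1 and Col1a2, made by fibroblasts of the meninges, were at 97.2 and 88.4 CPM in it and between 0.745 and 4.62 CPM in the other 4 libraries. The Wnt ligand gene Wnt8b of the cortical hem was at 117 CPM there and at 30.5 and 22.1 CPM in medial libraries 2 and 3. These 3 genes were chosen after their values were seen. The fold change of each of the 6 genes is therefore also given without this library, a fit in which 6.27% of 16392 genes passed as higher and 6.94% as lower in medial cortex.

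Emx1 and Emx2 encode homeodomain proteins of dorsal telencephalic progenitors, and Emx2 is the one whose dose sets the size of caudal and medial areas. Emx2 was at 102, 112 and 111 CPM in medial libraries 1 to 3 and at 52.1 and 34.9 CPM in lateral libraries 1 and 2. The medial libraries lay close together, and the lowest of them was well above the higher lateral one. The means were 108 CPM ± 5.47 (SD, n = 3) and 43.5 ± 12.1 (SD, n = 2). The log2 fold change was 1.32 (SE 0.18, edgeR adjusted p = 0.0296), and without medial library 1 it was 1.36 (adjusted p = 0.0199). The call was lost when medial library 2 (adjusted p = 0.119), medial library 3 (0.0503) or lateral library 2 (0.197) was left out of the edgeR fit, and held without lateral library 1 (0.0494); the log2 fold change stayed between 1.05 and 1.63. Without medial library 2 or lateral library 2, 0 of all genes passed in edgeR, with 4035 and 2456 at an unadjusted p below 0.05. With the replicate number of the labels as a block, whose meaning is not stated, the adjusted p was 0.0525.

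Emx1 showed a smaller difference. It was at 82.3, 108 and 116 CPM in the medial and at 90.9 and 68.3 CPM in the lateral libraries, so that medial library 1 fell between the 2 lateral ones. Its means were 102 CPM ± 17.4 (SD, n = 3) and 79.6 ± 15.9 (SD, n = 2), with a log2 fold change of 0.36 (SE 0.19, edgeR adjusted p = 0.241). The 95% interval of that change, from −0.10 to 0.81, includes 0. Without medial library 1 the log2 fold change was 0.49 (adjusted p = 0.0777).

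The difference between the 2 Emx genes can be read inside each library, where scaling plays no part. The log2 ratio of Emx2 reads to Emx1 reads was 0.31, 0.05 and −0.06 in medial libraries 1 to 3 and −0.80 and −0.97 in the lateral ones. Every medial library thus had relatively more Emx2 than either lateral library, with means 0.99 apart, a shift of 1.98 times. An exact two-sided permutation test over the 10 possible splits gave p = 0.1, the smallest that 3 against 2 libraries allow, so this design cannot reach 0.05. Leaving out each library in turn moved the shift only between 0.88 and 1.07.

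Emx2 has an antisense neighbour, Emx2os, a noncoding RNA of the opposite strand whose first bases overlap it in the GENCODE annotation of GRCm38. Emx2os was at 12.2, 12.2 and 10.6 CPM in the medial and at 4.36 and 3.14 CPM in the lateral libraries. It was higher in medial cortex by a log2 fold change of 1.63 (SE 0.20, edgeR adjusted p = 0.0272), and by 1.60 without medial library 1. The pair thus moved in the same direction. The libraries do not keep strand, and 215 of the 2996 stretches of 50 bases in GENCODE transcripts of Emx2 are also found, on the opposite strand, in those of Emx2os. Reads from that overlap cannot be assigned to either gene by strand. The 2 Emx genes themselves share 0 such stretches.

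The window at the Emx2 start, which also holds the annotated Emx2os start, is shown because both genes were higher in medial cortex; it runs from 250 bases before to 50 bases after the Emx2 start (RefSeq, GRCm38.p6, chr19:59458440-59458739, plus strand). Capitals mark matches, on either strand, to the GC box GGGCGG bound by Sp-type zinc fingers and to the homeodomain core TAATTA.
Emx2: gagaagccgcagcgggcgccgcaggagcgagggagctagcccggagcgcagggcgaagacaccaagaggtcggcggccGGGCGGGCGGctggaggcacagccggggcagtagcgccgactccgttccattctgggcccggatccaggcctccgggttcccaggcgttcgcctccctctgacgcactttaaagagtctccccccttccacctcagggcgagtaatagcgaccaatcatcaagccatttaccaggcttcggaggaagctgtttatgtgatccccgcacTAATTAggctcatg
The window held 2 overlapping matches to GGGCGG, which occurs in 35.7% of all 32851 promoter windows of this length, and 1 match to TAATTA, which occurs in 5.3%. Sites of the Wnt effectors of the TCF/LEF family share the core letters CTTTGA, found in 16% of windows, or the variant CTTTGT, found in 18.7%, and the Emx2 window held 0 matches to either. A match is only a match of letters, and these windows say nothing of more distant enhancers. The Emx1 window (chr6:85187681-85187980, plus strand) held 4 matches to GGGCGG and 0 to TAATTA.

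Sp8 encodes a zinc-finger protein of the Sp family that is induced by FGF in the rostral and medial cortex and is also found in some GABAergic interneurons. It was at 37.7, 49.9 and 38.9 CPM in medial libraries 1 to 3 and at 16.8 and 9.91 CPM in lateral libraries 1 and 2. All medial libraries were more than 2 times as high as either lateral one. The means were 42.2 CPM ± 6.72 (SD, n = 3) and 13.3 ± 4.86 (SD, n = 2), and the log2 fold change was 1.66 (SE 0.26, edgeR adjusted p = 0.0316). Without medial library 1 it was 1.73 (adjusted p = 0.0232). Leaving out any one of the other 4 libraries ended the call, with adjusted p-values of 0.119 without medial library 2, 0.0527 without medial library 3, 0.0529 without lateral library 1 and 0.202 without lateral library 2, while the log2 fold change stayed between 1.33 and 2.08. The replicate block also ended it (1.74, edgeR adjusted p = 0.0667).

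Among the 6 genes, Sp8 and Emx2 had the most similar pattern. After each gene was centred on its own mean, their log2 levels differed by a root mean square of 0.20 over the 5 libraries, against between 0.35 and 1.42 for every other pair. The second Sp8 promoter window of RefSeq (GRCm38.p6, chr12:118846983-118847282, plus strand) is shown beside that of Emx2 because of this likeness, with capitals for matches on either strand to the TCF/LEF core CTTTGA, to the GC box, and to the nuclear receptor element AGGTCA, which Nr2f proteins can bind.
Sp8: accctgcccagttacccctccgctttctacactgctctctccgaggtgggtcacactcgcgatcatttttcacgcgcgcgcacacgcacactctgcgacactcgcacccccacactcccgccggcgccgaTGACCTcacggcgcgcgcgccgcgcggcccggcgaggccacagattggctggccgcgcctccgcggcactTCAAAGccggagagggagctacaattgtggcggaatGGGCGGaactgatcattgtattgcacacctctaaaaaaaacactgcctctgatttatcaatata
It held 1 match to each of these 3 sequences, and AGGTCA occurs in 16.3% of all windows. Of the 3 Sp8 windows the second had the most matches, and the likeness to Emx2 does not single it out. TAATTA had 1 match in the third Sp8 window, and the first window held 0 matches to any of the 5 sequences searched.

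Sp8 is also an interneuron gene, so markers of these cells were read beside it. Of 14 interneuron markers, 7 were lower and 2 higher in medial cortex, with a median log2 fold change of −2.83 against 0.01 over all genes tested. Their summed level overlapped, at 111 to 160.4 CPM in medial and 140.1 to 158 CPM in lateral libraries. The GABA-synthesising enzyme genes Gad1 and Gad2 had log2 fold changes of −3.44 and −3.41, and Dlx2, a homeodomain factor of interneurons, one of −3.36. Sp9, the closest relative of Sp8 in these cells, was at 0.208, 0.175 and 1.08 CPM in the medial and at 3.88 and 5.68 CPM in the lateral libraries (log2 fold change −3.17, SE 0.57, edgeR adjusted p = 0.0347). Sp8 and Sp9, which both passed, thus had opposite signs. The 2 markers that were higher, Calb2 (2.68) and Prox1 (4.31), are also expressed by Cajal-Retzius cells and by the hippocampal primordium, respectively.

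Nr2f1 and Nr2f2 encode the orphan nuclear receptors COUP-TFI and COUP-TFII. Nr2f1 sets the boundary between frontal and sensory areas, while Nr2f2 is found in the caudal and ventral forebrain, in interneurons of the caudal ganglionic eminence, and outside the brain in venous vessels and mesenchyme. Nr2f1 was at 120.1, 42.7 and 75.9 CPM in medial libraries 1 to 3 and at 122 and 148 CPM in lateral libraries 1 and 2. Medial libraries 2 and 3 were well below both lateral ones, whereas medial library 1 was level with lateral library 1. The means were 79.6 CPM ± 38.8 (SD, n = 3) and 135 ± 18.8 (SD, n = 2). The log2 fold change was −0.76 (SE 0.39, edgeR adjusted p = 0.235), with a 95% interval from −1.72 to 0.20.

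The Nr2f1 result turned on medial library 1. Without it Nr2f1 was lower in medial cortex, with a log2 fold change of −1.18 (SE 0.27, edgeR adjusted p = 0.0452). Whether the groups overlapped depended on scaling: the log2 ratio of the lowest lateral to the highest medial library was 0.02 with TMM and −0.08 with library size alone. Medial library 2 and lateral library 1 carry the same tag in their deposited names, as do medial library 3 and lateral library 2, and medial library 1 has no such partner. The labels do not say what the tag marks. Within the tags the log2 difference of Nr2f1, medial minus lateral, was −1.51 and −0.97, and with the tag as a block Nr2f1 was lower in medial cortex (log2 fold change −1.23, edgeR adjusted p = 7.3e-06), in a fit in which 16.8% of genes passed as lower and 16.2% as higher. That fit leaves 1 residual degree of freedom and rests on 2 pairs, so the size of its p comes largely from variance shared across genes. The same differences were 1.10 and 1.67 for Emx2, 1.57 and 1.97 for Sp8, and 1.08 and 1.27 for Nr2f2, all higher in medial cortex within both tags. For Emx1 they were 0.25 and 0.76, and for Bhlhe22 0.04 and −0.22, with opposite signs.

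Nr2f2 went the other way. It was at 16.3, 6.64 and 8.03 CPM in the medial and at 3.15 and 3.34 CPM in the lateral libraries, which is 470, 190 and 289 reads against 207 and 180. Every medial library was above both lateral ones, and medial library 1 was the highest. The means were 10.3 CPM ± 5.22 (SD, n = 3) and 3.24 ± 0.138 (SD, n = 2), with a log2 fold change of 1.67 (SE 0.42, edgeR adjusted p = 0.0568). Without medial library 1 the log2 fold change was smaller, 1.18 (SE 0.18), but passed with an adjusted p of 0.0228. With all 5 libraries it also passed in DESeq2 (1.67, adjusted p = 0.000881), where 10.7% of genes passed as higher and 11% as lower. In edgeR Nr2f2 did not pass without medial library 2 (1.90, adjusted p = 0.119) or without medial library 3 (1.82, adjusted p = 0.0754). It did not pass with the replicate block either (1.72, edgeR adjusted p = 0.0956). Nor did Nr2f2 pass in edgeR without lateral library 1 or 2, where its log2 fold change was 1.62 or 1.71.

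**Figure D2:**
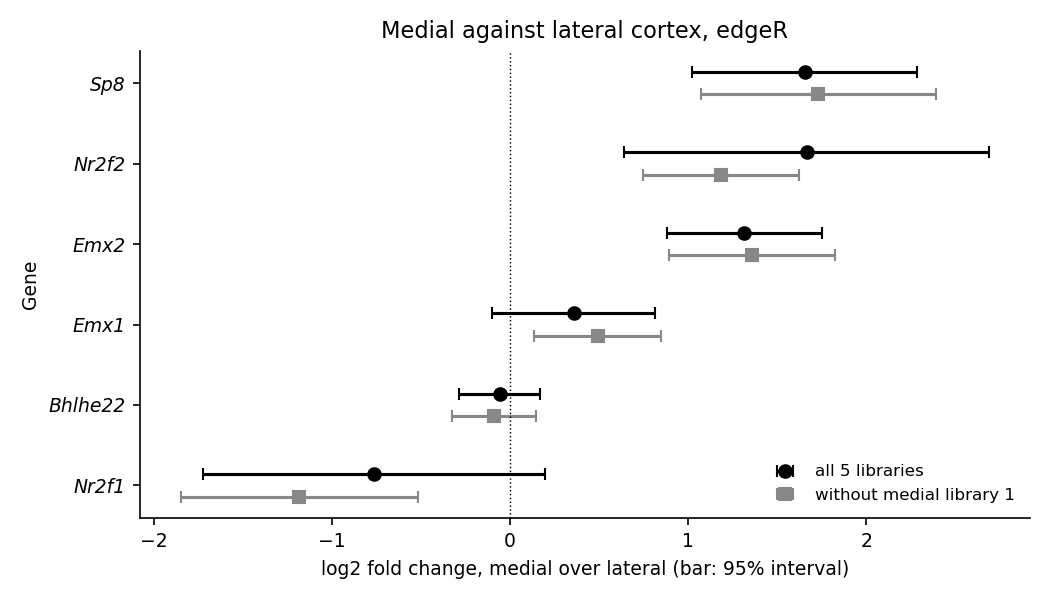
Log2 fold change of medial over lateral cortex for each gene with its 95% interval from edgeR, with all 5 libraries (black circles) and without medial library 1 (grey squares). Without that library the intervals of Nr2f2 and Nr2f1 are narrower and lie on opposite sides of 0, while Sp8 (1.73) and Emx2 (1.36) stay near their values with all libraries.

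The balance of the 2 receptors was also read inside each library. The log2 ratio of Nr2f2 reads to Nr2f1 reads was −2.88, −2.69 and −3.24 in medial libraries 1 to 3 and −5.27 and −5.47 in lateral libraries 1 and 2. Medial library 1, which was the highest medial library in both genes, had a ratio between those of the other medial libraries. The means were 2.44 apart, so the ratio was 5.42 times as high in medial cortex, and it stayed between 2.31 and 2.59 with each library left out. A ratio does not show which of the 2 genes moved. The exact two-sided permutation p was 0.1, again the smallest this design allows, and adjusted over the 2 ratios tested it was also 0.1. The 2 genes share 10 of the 5090 stretches of 50 bases in GENCODE transcripts of Nr2f1.

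**Figure D3:**
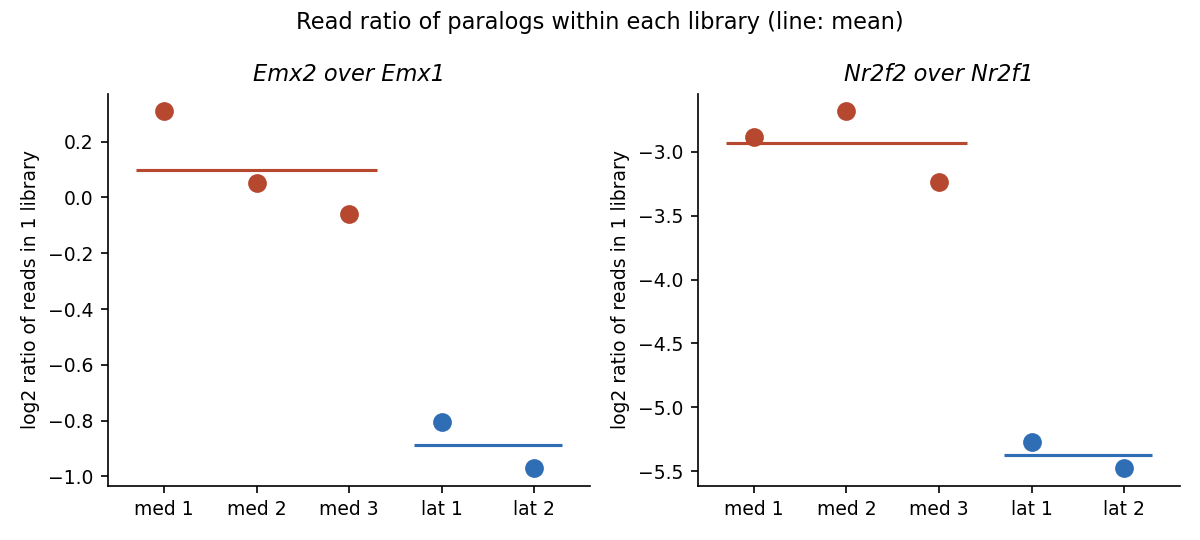
Log2 ratio of reads within each library for Emx2 over Emx1 (left) and Nr2f2 over Nr2f1 (right); points are libraries and lines are group means. All 3 medial libraries lie above both lateral libraries in each panel, by means that differ by 0.99 and 2.44.

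Genes of cells outside the cortical lineage that can hold Nr2f2 were read beside it. Of 13 tested markers of vessels and meninges, 0 were higher and 2 lower in medial cortex, Nrp1 (log2 fold change −1.07) and the endothelial cadherin gene Cdh5 (−0.58). Without medial library 1, the fit in which Nr2f2 passed, 1 was higher, the matrix gene Dcn (2.52, edgeR adjusted p = 0.0139), and 3 were lower. Their summed level was 529 CPM in medial library 1, 233 and 267 CPM in medial libraries 2 and 3, and 395 and 462 CPM in the lateral libraries. Nrp1 alone, at 116, 122 and 144 CPM in the medial and 255 and 280 CPM in the lateral libraries, made up most of each sum outside medial library 1. In medial library 1 the collagen genes given above were high together with Nr2f2 and Nr2f1, and their part in those values was not tested. In medial libraries 2 and 3, where Nr2f2 was still above both lateral libraries, Col1a1 was at 0.874 and 3.17 CPM against 0.745 and 4.62 CPM in lateral cortex. Dcn, chosen after its values were seen, was an exception, at 31.1, 3.71 and 4.20 CPM in the medial and at 0.821 and 0.538 CPM in the lateral libraries. Of the 14 interneuron markers, 7 were lower and 2 higher in medial cortex, so the list did not have a single direction. Gad1 was at 0.728, 0.280 and 1.67 CPM in the medial and at 8.86 and 11.6 CPM in the lateral libraries. Prox1 went the other way, at 83.4, 35.3 and 24.5 CPM in the medial and at 3.10 and 1.65 CPM in the lateral libraries. Calb2 was also higher in medial cortex (log2 fold change 2.68). The part of interneurons in the Nr2f2 level was not tested. In tissue libraries, more cells of a type and more RNA per cell cannot be told apart.

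**Figure D4:**
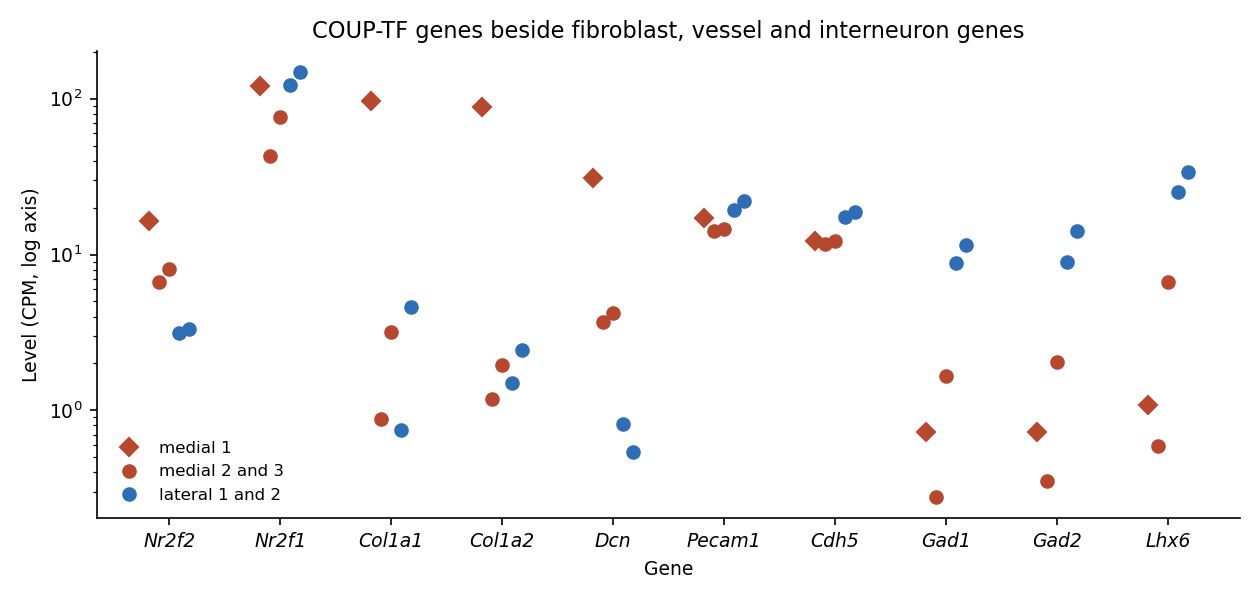
Levels (CPM, log axis) of Nr2f2 and Nr2f1 beside fibroblast (Col1a1, Col1a2, Dcn), endothelial (Pecam1, Cdh5) and interneuron (Gad1, Gad2, Lhx6) genes; diamonds are medial library 1, red circles medial libraries 2 and 3, blue circles the lateral libraries. Medial library 1 stands at 97.2 CPM for Col1a1 with all other libraries at 4.62 or less, while Nr2f2 is also higher in medial libraries 2 and 3 than in the lateral ones. The interneuron markers Prox1 and Calb2, which were higher in medial cortex, are not drawn.

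The antisense neighbours of the 2 receptor genes were read as for Emx2. A830082K12Rik, a noncoding RNA that shares stretches of 50 bases with Nr2f1 on the opposite strand, was at 13.9, 6.96 and 11.2 CPM in the medial and at 14.49 and 15.5 CPM in the lateral libraries. Its order over the libraries was that of Nr2f1, with medial library 2 lowest and medial library 1 next to the lateral ones. Its log2 fold change was −0.49 (SE 0.27, edgeR adjusted p = 0.270) and −0.71 without medial library 1 (adjusted p = 0.0953). B130024G19Rik, which shares such stretches with Nr2f2, had 2, 1 and 2 reads in the medial and 2 and 1 in the lateral libraries, too few to test. Reads from the shared stretches cannot be assigned by strand.

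The Nr2f1 start (RefSeq, GRCm38.p6, chr13:78198824-78199123, minus strand, first of 2 windows) is shown as the counterpart of the Emx2 start, for a gene that was lower in medial libraries 2 and 3. The capitals mark its only match to the 5 sequences searched, a GC box on the opposite strand.
Nr2f1: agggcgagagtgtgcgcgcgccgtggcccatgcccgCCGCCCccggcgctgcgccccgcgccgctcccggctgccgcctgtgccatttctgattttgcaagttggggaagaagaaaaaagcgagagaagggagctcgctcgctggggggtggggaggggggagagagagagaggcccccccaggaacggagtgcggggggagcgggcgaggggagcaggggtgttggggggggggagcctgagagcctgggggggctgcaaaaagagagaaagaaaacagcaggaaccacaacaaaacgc
The second Nr2f1 window held 1 match to CTTTGT. The Nr2f2 window (chr7:70366697-70366996, minus strand) held 1 match to CTTTGA and 0 to the other 4 sequences. GC made up 68% of the Nr2f1 window and 49.7% of the Nr2f2 window, against a median of 52.7% over all windows.

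Bhlhe22 encodes a basic helix-loop-helix repressor of postmitotic cortical neurons that sets area identity and axon targets. It was at 140.0, 133 and 129 CPM in the medial and at 129 and 149.9 CPM in the lateral libraries. The groups overlapped, with means of 134 CPM ± 5.63 (SD, n = 3) and 139.5 ± 14.7 (SD, n = 2). The log2 fold change was −0.06 (SE 0.09, edgeR adjusted p = 0.705), and its 95% interval, from −0.28 to 0.17, was the narrowest of the 6. Without medial library 1 it was −0.09 (adjusted p = 0.570). Its sign turned to 0.02 with library size alone and to 0.05 without lateral library 2.

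Other genes of cortical neurons were read beside Bhlhe22. Of 13 neuron markers, 7 were lower in medial cortex and 0 higher, with a median log2 fold change of −1.07, and in all 13 every medial library was below both lateral ones, against 5.1% of all genes passing as lower and 26.8% lying wholly below. Of the 13, 4 also stand in the lists of partner or area genes below. Their summed level ran from 2320 to 3902 CPM in medial and from 5397 to 6987 CPM in lateral libraries. Examples are the vesicle protein gene Syt1 (−1.57) and the splicing factor gene Rbfox3 (−0.55). Prdm8, which encodes the repressor that works with Bhlhe22 and which is named after its values were seen, was at 21.3, 25.1 and 26.7 CPM in the medial and at 37.0 and 43.5 CPM in the lateral libraries, with −0.72 on the log2 scale (SE 0.13, edgeR adjusted p = 0.0355). Prdm8 was thus separated between the regions, while the Bhlhe22 groups overlapped; the difference between the 2 genes was not tested.

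Radial glia genes, which mark the progenitors that hold Emx2, Sp8 and Nr2f1, were read in the same way. Of 10 markers, 3 were higher in medial cortex and 0 lower, namely Hes1 (1.05 on the log2 scale), Notch1 (0.69) and Nes (0.62), and the median of the 10 was 0.63. Of the 10, 2 are also partner factors below, Pax6 and Gli3. The summed level ran from 3405 to 4172 CPM in medial and from 2281 to 2694 CPM in lateral libraries. The log2 fold changes of Emx2 and Sp8, 1.32 and 1.66, were above that of each of the 10 markers, the highest of which was 1.05 for Hes1. How much of the Emx2 and Sp8 difference goes with the share of progenitors was not tested.

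Other transcription factors of area and dorsal identity divided by direction. Of 20 listed, all tested, 4 were higher and 3 lower in medial cortex, and without medial library 1 the counts were 5 and 6. Higher were Lmo4, a LIM-only cofactor (log2 fold change 0.76, SE 0.08), Dmrt3 (1.73, SE 0.21) and the selector gene Lhx2 (1.07, SE 0.17), and Dmrta2, named after its value was seen (1.03). Dmrt3 and Dmrta2 encode related factors of medial cortical progenitors. Lower were Meis1, a homeodomain cofactor (−2.45, SE 0.35), Prdm8 and Tbr1, a T-box factor of rostral and deep-layer neurons (−1.41), named after its value was seen. Pax6, which is known to oppose Emx2 and to be high rostrally and laterally, was at 224, 216 and 205 CPM in the medial and at 194 and 153 CPM in the lateral libraries (0.31, SE 0.12, adjusted p = 0.132); it is also named after its value was seen. Every medial Pax6 level was above both lateral ones.

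Genes known to be restricted to certain areas, some of them under the control of the factors above, were more often lower. Of 20 listed and tested, 3 were higher and 6 lower in medial cortex, with a median log2 fold change of −0.52 against 0.01 over all genes tested, and 3 and 10 without medial library 1. Cyp26b1, which breaks down retinoic acid, was at 7.91, 9.72 and 6.92 CPM in medial and at 0.106 and 0.186 CPM in lateral libraries (log2 fold change 5.81, SE 0.34, edgeR adjusted p = 0.0104). The thyroid hormone-binding protein gene Crym (3.99) was also higher, and the helix-loop-helix inhibitor gene Id2 (−1.32) was lower.

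**Figure D5:**
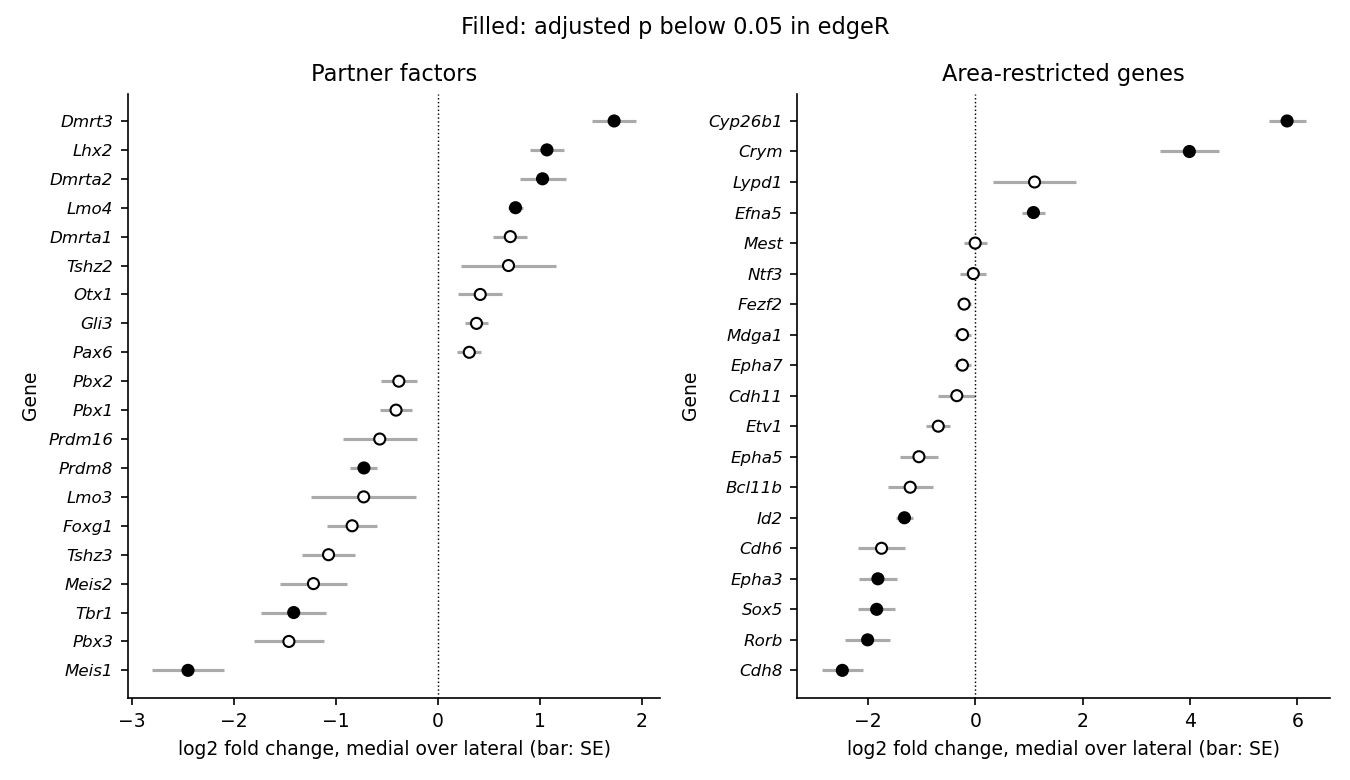
Log2 fold change of medial over lateral cortex with its SE for 20 partner factors (left) and 19 of the 20 area-restricted genes (right); filled points passed an adjusted p of 0.05 in edgeR and open points did not. In the left panel 4 passed as higher and 3 as lower, and in the right panel, of those drawn, 3 and 5.

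Family members of the 6 genes showed no common direction. Of 17 relatives, 13 were tested, and Bhlhe40 (log2 fold change 0.96) and Sp5 (6.15) were higher and Sp9 (−3.17) lower in medial cortex. Sp5, a target of Wnt signals, was at 7.56, 2.69 and 1.22 CPM in the medial and at 0.0608 and 0.0371 CPM in the lateral libraries, so it too was highest in medial library 1, and its lateral levels lay near the floor of 3 reads. Nr2f6, the third Nr2f gene, was at 18.5, 18.7 and 15.3 CPM against 11.6 and 8.02 CPM (0.83, SE 0.20, edgeR adjusted p = 0.0526), and is named after its values were seen.

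The signals that set the gradients were read from 2 lists. Of 16 medial Wnt and BMP genes, all tested, 12 were higher and 0 lower in medial cortex, among them Bmp7 (log2 fold change 3.54), Wnt5a (4.08), Axin2 (1.75) and Rspo1 (7.05). Their summed level was 582, 325 and 275 CPM in medial libraries 1 to 3 and 80.9 and 78.4 CPM in the lateral ones. Emx2 was at 102, 112 and 111 CPM in medial libraries 1 to 3, and the part of these signals in its level was not tested. Of 14 tested genes of FGF signalling, 3 were higher and 1 lower: Etv4, a factor induced by FGF (1.87), Fgfr1 (0.41) and the feedback inhibitor gene Spry1 (2.07), against Fgf18 (−1.31). None of the FGF list passed with the replicate block or without medial library 2, and without medial library 3 only 1 did, as higher. Of the Wnt and BMP genes, 13 passed as higher with the replicate block, 11 without medial library 3 and 0 without medial library 2. Without medial library 2, 0 of all genes passed in edgeR. Fgf8, the ligand of the rostral centre, had at most 0.035 CPM in any library, which is below the 3 reads taken as a floor. Its reads were too few for a difference between the regions to be read.

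Lists of neighbouring tissue and of other cells were read as measured levels beside Emx2, Sp8 and Nr2f2. Of 9 Cajal-Retzius markers 8 were higher in medial cortex, among them Reln (1.59) and Trp73 (2.50), with a summed level of 575 to 675 CPM against 182 to 224 CPM. Of 7 tested thalamus markers 3 were higher, Zic1 (4.21), Lhx9 (3.06) and Zic4 (5.15), at 217 to 383 CPM against 48.4 to 60.4 CPM in sum. Zic1 alone, at 240.4, 134 and 115 CPM in medial libraries 1 to 3, made up most of the medial sum. Of the other thalamus markers, named after their values were seen, Tcf7l2 (0.24), Rora (0.34), Foxp2 (−0.43) and Barhl2 (edgeR adjusted p = 0.0711) did not pass, and Gbx2 had at most 0.0693 CPM, below the floor. Of 7 tested choroid plexus markers 2 were higher, Otx2 (5.24) and Foxj1 (0.68), at 19.2 to 28.7 CPM against 9.24 to 18.8 CPM. The others tested, named after their values were seen, did not pass: Ttr (−0.46), Kcne2 (−0.28), Aqp1 (0.23), Folr1 (2.46) and Clic6 (2.39). Of 7 intermediate progenitor markers, 1 was lower, Elavl4 (−0.50), at 876 to 1113 CPM against 1066 to 1192 CPM. The part of these cells in the levels of the area genes was not tested.

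The genes closest to each of the 6 in pattern were sought among 10168 named genes with a mean of at least 5 CPM, by the root mean square difference of centred log2 levels over the 5 libraries. For Emx2 they were Fosl2 (0.09), Dach1 (0.10) and Chd7 (0.11), and for Sp8 D8Ertd82e (0.04), Ebf2 (0.08) and Tpbg (0.10). For Nr2f2 they were Pter (0.08), Cdkn1a (0.11) and Rbm20 (0.11), each with its highest level in medial library 1, and for Nr2f1 Fgd3 (0.13), Lrrc7 (0.15) and Pid1 (0.18). For Emx1 they were Fgfrl1 (0.03) and Trip10 (0.04), and for Bhlhe22 Myo9a (0.01), Vma21 (0.02) and Opa1 (0.03). Dach1, a transcription cofactor gene, was at 103, 140.1 and 121 CPM in medial and at 59.5 and 38.4 CPM in lateral libraries. With 5 libraries such likeness is a description of these samples.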

How the data were processed

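RNA was extracted with a column kit and polyadenylated RNA was sequenced without strand, per the labels' protocols. The authors deposited counts of reads per gene symbol, not normalised. The submitters' processing notes name mm9, BWA, STAR and HTSeq, without versions or roles, and the annotation is not given in the sources used here. Reads that HTSeq assigned to no gene, between 23.1% and 28.7% of each file, were left out.

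Groups came from the labels. Counts were scaled with TMM and tested with edgeR 4.0.16 (R 4.3.3; glmQLFit with legacy=FALSE, glmQLFTest) with region as the only term. Genes were kept by filterByExpr (count 10, total 15). The SE is the log2 fold change over the root of F. The 3 reads taken as a floor, which covers counting error only, equal 0.0448 to 0.109 CPM by library. No 2 libraries agreed within sampling noise. On simulated counts for this comparison (15999 genes, 200 changed) edgeR recovered 47% of 2-fold and 90% of 4-fold changes, and 19 of its 156 calls were false.

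Members, lists and alternatives were chosen with earlier results of these data known. Named were the 6 genes, their antisense neighbours, up to 4 passing genes of each list with the lowest adjusted p, and the 3 genes nearest in pattern; others are marked, and 2 that the rule names are not reported here. Lists were not tested as sets. 2 listed symbols, Ndnf and Map2, were found under older symbols. Promoter windows (RefSeq, GRCm38.p6) matched 5 of 6 genes, all but Bhlhe22; no mm9 coordinates were used. Alternatives were other scalings, filters, thinning to the smallest library, DESeq2 1.42.0, limma-voom (limma 3.58.1), the older edgeR form, blocks, and leaving out each library.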

Additional observations from a re-analysis of the deposited data

How the results depend on the processing

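In every alternative that kept all 5 libraries and had no block, Emx2 and Sp8 stayed higher in medial cortex and passed. Bhlhe22 turned sign with library size alone (0.016), and the log2 gap between the Nr2f1 groups, a measure chosen after seeing the data, turned to −0.014 with upper-quartile scaling and −0.080 with library size alone. The cause of these changes, and of those below, was not tested. The median of all genes moved by at most 0.08.

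DESeq2 passed Nr2f2 (1.67), 7 partner factors and 10 area-restricted genes as lower, 4 family relatives as higher and 2 as lower, and 1737 and 1790 of all genes. Family relatives passing as higher numbered 1 with limma-voom and 1 after thinning, and 0 FGF signalling genes passed as lower in both. Without a low-count filter 496 of all genes passed as higher and 706 as lower.

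Whether replicate numbers or file tags pair the libraries could not be decided. The labels do not say what they mark, and the deviations of 2 lateral libraries mirror each other, so a correlation with one is that with the other with its sign turned. Either block leaves 1 residual degree of freedom. With the replicate block Emx2 was at 1.32 (edgeR adjusted p = 0.0525) and Sp8 at 1.74 (0.0667), so 0 of the 6 genes passed as higher; 5 partner factors passed as lower, 1 family relative and 454 of all genes as higher, and 0 FGF signalling genes passed in either direction. With the tag as a block Emx1 (0.50), Nr2f2 (1.17) and Nr2f1 (−1.23) passed as well, giving 4 of the 6 genes higher and 1 lower, 8 partner factors higher and 11 lower, 11 area-restricted genes lower, 5 family relatives higher and 3 lower, 4 FGF signalling genes higher and 5 lower, and 2634 and 2727 of all genes.

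With each library left out in edgeR, the log2 fold changes ranged from 1.05 to 1.63 for Emx2, 1.33 to 2.08 for Sp8, 0.17 to 0.57 for Emx1, 1.18 to 1.90 for Nr2f2, −1.18 to −0.46 for Nr2f1 and −0.17 to 0.051 for Bhlhe22. Of the 6 genes, 0 to 3 passed as higher and 0 to 1 as lower. Partner factors passing ranged from 0 to 5 higher and 0 to 6 lower, area-restricted genes from 0 to 3 and 0 to 10, family relatives from 0 to 2 and 0 to 1, FGF signalling genes from 0 to 3 and 0 to 2, Wnt and BMP genes from 0 to 14 and 0 to 0, and all genes from 0 to 1027 and 0 to 1137. In edgeR 0 of all genes passed without medial library 2 (4035 at an unadjusted p below 0.05; 983 and 1023 in DESeq2) and without lateral library 2 (2456 at that level).

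DESeq2 without medial library 1 passed Emx1 (0.49), Nr2f1 (−1.19) and Nr2f2 (1.18), so 4 of the 6 genes higher and 1 lower, with 7 partner factors and 11 area-restricted genes lower and 1415 and 1626 of all genes. Nr2f2 also passed in DESeq2 without medial library 2 (1.91), medial library 3 (1.82), lateral library 1 (1.62) and lateral library 2 (1.71); partner factors lower numbered 7, 8, 6 and 1. Without medial library 3, 4 family relatives were higher, with 1509 and 1599 of all genes. Without lateral library 2, 1 family relative was higher and 0 lower in DESeq2, with 384 and 280 of all genes, and Bhlhe22 was at 0.047. A fit with 1 lateral library assumes that it varies like the medial ones.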
